A study of Mus musculus with 45 samples.

Results

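Cells make cholesterol and fatty acids with enzymes whose genes are controlled by the sterol regulatory element binding proteins (SREBPs). A list of 33 genes of this pathway was read from mouse lung phagocytes: 18 enzymes of sterol synthesis, 6 regulators and transport proteins, and 9 enzymes of fatty acid synthesis. The list was matched by gene symbol, and 33 of the 33 symbols were rows of the authors' table of 23594 genes. Of these, 26 reached at least 5 TPM (a level normalised for transcript length and library size) in at least 2 libraries and were tested among 8937 genes: 15 sterol enzymes, 6 regulators and 5 fatty acid enzymes.

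Libraries came from 3 populations, namely macrophages of the airspace (alveolar macrophages, AM), macrophages of the tissue (interstitial macrophages, IM) and inflammatory monocytes (iMo), sorted by flow cytometry from the lungs of C57BL/6J mice and sequenced from low cell numbers with a Smart-seq2 type protocol on polyA RNA. Every group was of this one strain, and the labels give neither an engineered allele nor an age. The 12 groups read here were each cell type before treatment (0h; 4 AM, 2 IM and 2 iMo libraries) and at 2, 6 and 20h after intraperitoneal (ip) lipopolysaccharide (LPS), a bacterial cell wall component (2, 3 and 2 AM libraries, and 2 IM and 2 iMo libraries at each time). The series text has 22h for the latest time, and the 20h of the sample labels was kept. The 18 libraries with nasal LPS were not read, because their values do not follow the row names of the table. The labels do not tell whether replicates are separate animals, so the spread behind each p-value may be technical.

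In the sterol arm, the enzymes carry acetyl-CoA through mevalonate and squalene to cholesterol. SREBP-2, made from Srebf2, mainly drives these genes, and SREBP-1, made from Srebf1, mainly drives fatty acid synthesis. Scap escorts both precursors from the endoplasmic reticulum to the Golgi for cleavage when membrane sterols are low, and Insig1 and Insig2 hold it back when sterols are high. In macrophages, LPS and interferons are known to shift sterol synthesis, and alveolar macrophages live in a lipid-rich film of surfactant.

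Promoters of 6 genes are shown because their transcripts carry the results below: Hmgcs1 and Insig1 as classic sterol-driven genes, Srebf2 and Fasn for the monocyte response, and Scap and Dhcr7 for the difference between cell types. Each is the 150 bases before a RefSeq transcription start (GRCm38.p6), written on the gene's strand. Capitals mark matches on either strand to NCACNCCAC (a form of the sterol regulatory element), CCAAT (NF-Y), GGGCGG (Sp1) or CACGTG (an E box). Dhcr7 had 3 such starts and Scap 2, and the stretch with the most matches was printed. For Dhcr7 it lies inside the gene, before an internal start.
Hmgcs1, chr13:119690201-119690350, plus strand: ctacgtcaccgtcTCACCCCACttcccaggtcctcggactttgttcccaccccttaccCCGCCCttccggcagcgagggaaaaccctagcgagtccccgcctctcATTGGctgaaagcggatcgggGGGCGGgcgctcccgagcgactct
Insig1, chr5:28071262-28071411, plus strand: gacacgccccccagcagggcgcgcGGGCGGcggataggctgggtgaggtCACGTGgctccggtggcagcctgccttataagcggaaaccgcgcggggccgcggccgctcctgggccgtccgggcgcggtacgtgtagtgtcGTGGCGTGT
Srebf2, chr15:82147119-82147268, plus strand: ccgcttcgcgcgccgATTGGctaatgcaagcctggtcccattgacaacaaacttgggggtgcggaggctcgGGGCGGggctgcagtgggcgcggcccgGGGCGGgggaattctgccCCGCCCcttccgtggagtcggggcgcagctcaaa
Scap, chr9:110333206-110333355, plus strand: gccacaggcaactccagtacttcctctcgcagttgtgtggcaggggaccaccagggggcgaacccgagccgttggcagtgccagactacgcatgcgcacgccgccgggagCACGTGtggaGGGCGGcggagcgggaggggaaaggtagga
Dhcr7, chr7:143830064-143830213, plus strand: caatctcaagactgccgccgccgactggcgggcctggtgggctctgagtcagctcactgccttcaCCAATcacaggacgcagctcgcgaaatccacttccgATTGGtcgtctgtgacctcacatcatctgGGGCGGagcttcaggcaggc
Fasn, chr11:120824548-120824697, minus strand: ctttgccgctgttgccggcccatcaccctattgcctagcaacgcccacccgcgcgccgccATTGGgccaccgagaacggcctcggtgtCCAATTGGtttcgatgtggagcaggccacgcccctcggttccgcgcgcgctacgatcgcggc
RefSeq promoter windows from 250 bases before to 50 bases after the start were found for 26 of the 33 genes. Fdps, Fdft1, Sqle, Stard4, Scd1, Scd2 and Fads1 had none. The stricter element TCACNCCAC was in the window of 1 gene, Hmgcs1, and in 1.44% of all 27025 genes with a window. NCACNCCAC, which includes the stricter form, was in 3 of 26 (Acat2, Hmgcs1 and Insig1) and in 7.1% of all genes. CCAAT was in 21 of 26 genes (80.8%) against 41.1% of all genes, GGGCGG in 21 of 26 against 38.2%, and CACGTG in 6 of 26 (23.1%) against 8.09%. These are letters in a window and not measured binding.

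Several libraries differed in ways that touch the results. The 8 libraries labelled IM held 10 neutrophil markers at a summed level of 11200 to 56800 TPM, against 24.7 to 442 in AM, where Ly6g was at 0 in 6 of 11 libraries, and 135 to 3060 in iMo. Their 9 interstitial macrophage markers (C1qa and others) summed to 4110 and 4630 TPM at 0h, 122 and 294 at 2h, 289 and 298 at 6h, and 2000 and 2120 at 20h, so the IM label is poorly borne out by its markers at 2 and 6h. The 12 alveolar macrophage markers summed to 1640 to 5520 TPM in AM and at most 275 elsewhere. Monocyte markers without Chil3, a gene that AM also express, summed to 2190 to 12800 TPM in iMo and 5.13 to 204 in AM, but to 2070 to 6200 in IM as well. Library AM 20h A161219 held interstitial macrophage markers at 985 TPM against 129 to 340 in the other AM libraries. Mrc1 is on that list and was higher in AM (92.7 to 321 TPM) than in IM (2.41 to 77). The AM sums therefore do not compare directly with those of IM. Rn45s, a ribosomal RNA precursor, took between 4.33 and 33.3% of each column, and 14.8 to 33.3% in the 6 libraries whose title code has no letter (called unlettered below). Of the 33 genes, 30, 26, 21 and 25 were lowest in the unlettered library in AM 2h, AM 6h, IM 2h and IM 6h, 23 in AM 0h and 11 in AM 20h. The same count was not made over all genes, and the share given by chance is larger in smaller groups. These numbers therefore describe the libraries and not this list. The part of these differences in the results below was not tested. In bulk libraries, fewer cells of a type and less RNA per cell cannot be told apart.

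**Figure D1:**
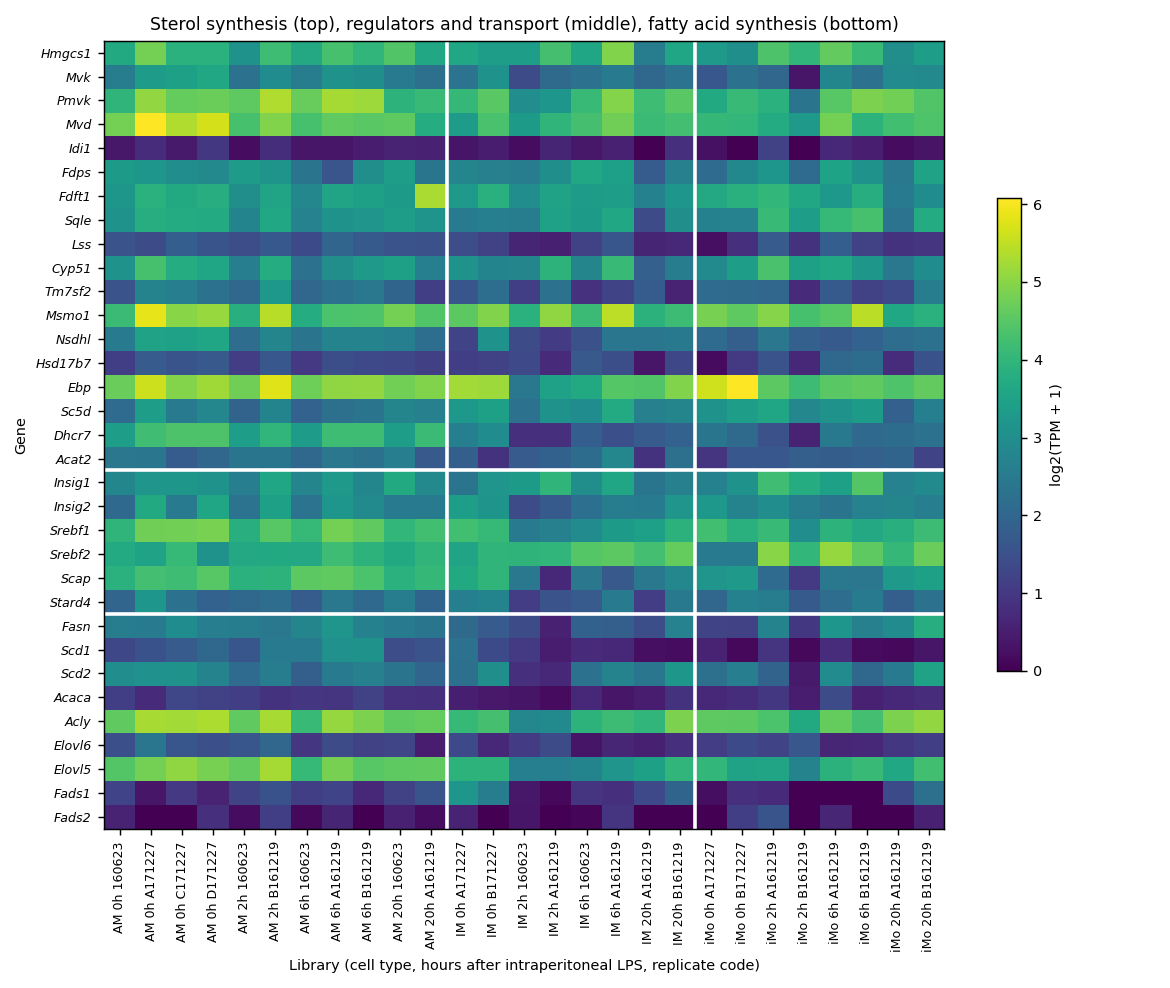
Level of the 33 genes (rows, by function) in the 27 libraries (columns, by cell type, hours after LPS and replicate code), as log2(TPM + 1). Ebp, Acly, Msmo1, Pmvk and Mvd are the brightest rows, Idi1, Acaca and Fads2 stay near 0, and the Dhcr7 and Scap rows darken from AM to IM and iMo.

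Levels spread more widely in the sterol and fatty acid arms than among the regulators, whose medians ran from 3.5 TPM (Stard4) to 15.3 (Srebf1). Per length, the highest medians over the 27 libraries were those of Ebp (25.9 TPM), which isomerises a sterol double bond, Acly (22.9), which makes cytosolic acetyl-CoA from citrate, and Msmo1 and Pmvk (21.4 each). The lowest were Fads2 (0.144), Idi1 (0.348) and Acaca (0.738), which were not tested. Over all 12 groups, 17 of the 26 tested genes differed by limma's moderated F test (Benjamini-Hochberg adjusted p under 0.05): 8 sterol enzymes, 4 regulators and 5 fatty acid enzymes. Among all genes the share was 74.2%, so the list did not stand above the background. Msmo1 (adjusted p = 0.409), Stard4 (0.433) and Hmgcs1 (0.127) were among those that did not pass. All levels below are TPM. Within a group they are given with the unlettered library first, where there is one, and then by the letter of the title. Fold changes are differences of log2(TPM + 1) minus the median difference of all tested genes, while the tests are on the differences themselves.

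Over the 3 times after LPS, IM and iMo were each compared with AM. Dhcr7, Scap, Scd1 and Elovl5 were lower in both cell types, and Srebf2 was higher in both. Scd1 passed the filter through AM libraries alone, which favours its calls against AM. For IM, 1 gene was higher and 11 were lower among the 26, against 54.1% of all genes called in that comparison (17.5% higher, 36.6% lower). For iMo, 1 was higher and 5 were lower, against 46% of all genes (18.3% higher, 27.6% lower). In all, 46.2% (IM) and 23.1% (iMo) of the 26 genes were called, under the background in both, and by direction the 11 lower of 26 in IM were slightly above the share of all genes and the 5 lower in iMo below it. The list as a whole was thus near or under the background, and the median of all genes differed by -0.30 (IM) and -0.10 (iMo) on the log2 scale.

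Among the sterol enzymes, Dhcr7 carries out the last step to cholesterol from 7-dehydrocholesterol (mm10, chr7:143823145-143848410, plus strand). Dhcr7 in AM was at 9.34, 17.5, 19.9 and 19.8 TPM at 0h, 9.58 and 14.9 at 2h, 9.02, 17.3 and 17.2 at 6h, and 9.42 and 16.7 at 20h. IM libraries held Dhcr7 at 5.15 and 6.69 TPM at 0h, 0.778 and 0.778 at 2h, 2.53 and 1.79 at 6h, and 2.35 and 2.73 at 20h. iMo values of Dhcr7 were 4.15 and 3.31 TPM at 0h, 1.84 and 0.518 at 2h, 4.51 and 3.25 at 6h, and 3.4 and 3.82 at 20h. The AM libraries, at 9.02 or more, did not overlap with IM or iMo, at 6.69 or less, at any time. Dhcr7 was lower by -2.05 (SE 0.22, limma's adjusted p = 3e-09) in IM and by -1.85 (SE 0.22, 8.71e-08) in iMo over the ip times.

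Ebp, the sterol isomerase named above, lies on the X chromosome (chrX:8185329-8193512, minus strand). Ebp in AM was at 24.8, 48, 30.1 and 36.2 TPM at 0h, 25.9 and 54 at 2h, 25.8, 32.7 and 32.9 at 6h, and 26.5 and 29.5 at 20h. IM libraries held Ebp at 36.4 and 35.5 TPM at 0h, 4.4 and 10.1 at 2h, 11.8 and 21.2 at 6h, and 20.5 and 29.2 at 20h. iMo values of Ebp were 49.1 and 66.4 TPM at 0h, 22.5 and 17 at 2h, 21.9 and 23.1 at 6h, and 20.2 and 23.5 at 20h. Over the ip times, IM ranged from 4.4 to 29.2 and iMo from 17 to 23.5, and iMo did not overlap with AM (25.8 to 54). Ebp was lower in IM by -0.83 (SE 0.23, adjusted p = 0.000178) and in iMo by -0.46 (SE 0.23, 0.0482), and the iMo call was kept in 9 of 27 fits that left out 1 library.

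Pmvk adds the phosphate that turns phosphomevalonate into its diphosphate (chr3:89454541-89469013, plus strand). Pmvk in AM was at 14.8, 32.8, 24 and 25.3 TPM at 0h, 22.8 and 39.9 at 2h, 24.3, 37.2 and 35.2 at 6h, and 14.3 and 16 at 20h. IM libraries held Pmvk at 15.4 and 21.8 TPM at 0h, 6.83 and 8.17 at 2h, 16.4 and 29.8 at 6h, and 17.1 and 22 at 20h. iMo values of Pmvk were 11.9 and 16.4 TPM at 0h, 13.7 and 4.09 at 2h, 21.4 and 28.2 at 6h, and 26.5 and 20.6 at 20h. Groups overlapped, with the lowest values at 2h in IM and in iMo B161219. Over the ip times it was lower in IM by -0.38 (SE 0.25, adjusted p = 0.0238), a call lost when AM 2h B161219, IM 2h unlettered, IM 6h unlettered or IM 20h A161219 was left out.

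The next enzyme, Mvd, makes isopentenyl diphosphate (chr8:122433601-122443422, minus strand). Mvd in AM was at 27.1, 66.2, 40.1 and 50.1 TPM at 0h, 18.9 and 29.4 at 2h, 18.7, 23.2 and 21.9 at 6h, and 22.8 and 12.6 at 20h. IM libraries held Mvd at 9.03 and 19 TPM at 0h, 8.96 and 14.6 at 2h, 18.4 and 26.2 at 6h, and 16.6 and 18.2 at 20h. iMo values of Mvd were 15.5 and 15.2 TPM at 0h, 12.3 and 8.62 at 2h, 26.9 and 14.1 at 6h, and 17.7 and 20.1 at 20h. The AM libraries of 0h all lay above every IM and iMo library. Over the ip times Mvd did not pass in IM (adjusted p = 0.307) or in iMo (-0.27, SE 0.24, 0.226).

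Mvk, which phosphorylates mevalonate, comes earlier (chr5:114444269-114460591, plus strand). Mvk in AM was at 4.94, 9.22, 9.86 and 11.2 TPM at 0h, 3.89 and 6.73 at 2h, 4.85, 7.66 and 7.15 at 6h, and 4.61 and 3.72 at 20h. IM libraries held Mvk at 3.98 and 7.5 TPM at 0h, 1.65 and 3.26 at 2h, 3.87 and 4.68 at 6h, and 3.07 and 4.01 at 20h. iMo values of Mvk were 2.14 and 3.85 TPM at 0h, 3 and 0.282 at 2h, 5.89 and 3.88 at 6h, and 6.61 and 6.24 at 20h. Its ranges overlapped after LPS, and the single lowest value was iMo 2h B161219.

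Nsdhl takes part in removing the methyl groups at carbon 4 of sterols and is X-linked (chrX:72918557-72958514, plus strand). Nsdhl in AM was at 4.8, 10.4, 10.2 and 10.8 TPM at 0h, 3.47 and 5.77 at 2h, 4.04, 5.6 and 5.57 at 6h, and 5.15 and 3.6 at 20h. IM libraries held Nsdhl at 1.38 and 7.7 TPM at 0h, 1.68 and 1.13 at 2h, 1.86 and 4.25 at 6h, and 4.18 and 4.51 at 20h. iMo values of Nsdhl were 3.33 and 2.6 TPM at 0h, 4.34 and 2.63 at 2h, 2.29 and 2.75 at 6h, and 3.5 and 3.89 at 20h. The pair of IM libraries at 0h differed widely, and after LPS the ranges overlapped. Nsdhl was lower in IM than in AM over the ip times by -0.31 (SE 0.26, adjusted p = 0.0464), kept in 10 of 27 leave-out fits. Nsdhl reached 5 TPM in 8 libraries, all AM except IM 0h B171227, so it too was tested because of its AM values, which favours its calls against AM here and at 0h. Tm7sf2, a sterol reductase whose exons overlap Vps51, was also lower (-0.53, SE 0.30, 0.0223), kept in 22 of 27, but the 3 libraries in which it reached 5 TPM were all AM, so the filter favoured this call as well.

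Among the regulators, Scap was the gene with the largest difference (chr9:110333288-110384950, plus strand). Scap in AM was at 13.8, 18.1, 17.2 and 21.7 TPM at 0h, 13.7 and 14.3 at 2h, 22.2, 23.2 and 19.3 at 6h, and 13.8 and 15.4 at 20h. IM libraries held Scap at 11.9 and 14.7 TPM at 0h, 4.42 and 0.593 at 2h, 4.33 and 2.23 at 6h, and 4.39 and 6.02 at 20h. iMo values of Scap were 8.03 and 8.83 TPM at 0h, 3.33 and 1.04 at 2h, 4.42 and 4.34 at 6h, and 8.77 and 9.87 at 20h. Over the ip times the AM libraries, 13.7 to 23.2, lay above all IM (0.593 to 6.02) and all iMo libraries (1.04 to 9.87), while at 0h AM and IM overlapped. Scap was lower by -1.74 (SE 0.24, adjusted p = 9.04e-08) in IM and by -1.57 (SE 0.24, 2.41e-06) in iMo.

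Srebf2, the SREBP-2 gene, went the other way (chr15:82147181-82205379, plus strand). Srebf2 in AM was at 12.2, 10.3, 15.8 and 7.59 TPM at 0h, 11.6 and 11.9 at 2h, 11.6, 17.3 and 14.3 at 6h, and 11.9 and 14.7 at 20h. IM libraries held Srebf2 at 10.7 and 14.6 TPM at 0h, 14.5 and 14.9 at 2h, 21.1 and 22.3 at 6h, and 18.2 and 24.1 at 20h. iMo values of Srebf2 were 4.58 and 4.75 TPM at 0h, 30.9 and 15.3 at 2h, 33.8 and 22.6 at 6h, and 15.4 and 24.7 at 20h. The iMo libraries of 0h were the lowest of all 27, and iMo 2h A161219 and iMo 6h A161219 the highest. Over the ip times Srebf2 was higher in iMo than in AM by 0.86 (SE 0.21, adjusted p = 0.00372). In IM it was higher by 0.80 (SE 0.21, 0.043), but that call was lost in 12 of 27 leave-out fits and with columns rescaled without Rn45s and Lars2 (adjusted p = 0.466).

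Srebf1, the SREBP-1 gene, shares exon sequence with Rai1 on the opposite strand (chr11:60199089-60222581, minus strand). Srebf1 in AM was at 14.6, 26.2, 26.7 and 28 TPM at 0h, 13.1 and 21.6 at 2h, 15.8, 26.8 and 23 at 6h, and 15.3 and 17.7 at 20h. IM libraries held Srebf1 at 17.7 and 15.8 TPM at 0h, 4.62 and 5.21 at 2h, 6.59 and 8.95 at 6h, and 9.8 and 13.9 at 20h. iMo values of Srebf1 were 17.8 and 13.5 TPM at 0h, 16.3 and 6.86 at 2h, 14.1 and 11.6 at 6h, and 13.1 and 16.9 at 20h. All IM libraries of 2 and 6h were below every AM library, and iMo 2h B161219 and iMo 6h B161219 also lay below the AM range. Srebf1 was lower in IM by -0.84 (SE 0.22, adjusted p = 0.000108) and did not pass in iMo (-0.39, SE 0.22).

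In the fatty acid arm, Scd1 introduces the double bond of oleate and is usually a target of SREBP-1 and LXR (chr19:44394455-44407879, minus strand). Scd1 in AM was at 1.5, 1.91, 2.37 and 3.16 TPM at 0h, 2.1 and 4.73 at 2h, 4.7, 7.46 and 7.75 at 6h, and 1.69 and 1.96 at 20h. IM libraries held Scd1 at 3.78 and 1.58 TPM at 0h, 1.04 and 0.387 at 2h, 0.666 and 0.625 at 6h, and 0.182 and 0.159 at 20h. iMo values of Scd1 were 0.508 and 0.091 TPM at 0h, 0.916 and 0.1 at 2h, 0.699 and 0.126 at 6h, and 0.094 and 0.296 at 20h. After LPS, AM (1.69 or more) did not overlap with IM (1.04 or less) or iMo (0.916 or less). Scd1 was lower by -1.29 (SE 0.23, adjusted p = 2.01e-06) in IM and by -1.64 (SE 0.23, 6.48e-07) in iMo. Scd1 reached 5 TPM in 2 libraries, AM 6h A161219 and AM 6h B161219, so it was tested because of its AM values.

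Elovl5 lengthens polyunsaturated fatty acids (chr9:77917364-77984519, plus strand). Elovl5 in AM was at 20.7, 26.9, 32.7 and 27.6 TPM at 0h, 23.4 and 37 at 2h, 15.9, 27.5 and 21.6 at 6h, and 22.6 and 23.2 at 20h. IM libraries held Elovl5 at 14.3 and 14.2 TPM at 0h, 5.2 and 5.17 at 2h, 5.68 and 7.99 at 6h, and 9.99 and 14.9 at 20h. iMo values of Elovl5 were 15.3 and 10.4 TPM at 0h, 10.6 and 5.59 at 2h, 14 and 16.2 at 6h, and 11.5 and 17.8 at 20h. All IM libraries were below all AM libraries, and iMo overlapped with AM in iMo 6h B161219 and iMo 20h B161219. Elovl5 was lower by -1.25 (SE 0.20, adjusted p = 6.44e-07) in IM and by -0.87 (SE 0.20, 0.000348) in iMo.

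Acly, the citrate lyase, is the source of acetyl-CoA for both arms (chr11:100476353-100528000, minus strand). Acly in AM was at 23.1, 37.8, 36.7 and 39 TPM at 0h, 23.3 and 37.8 at 2h, 16, 33.7 and 28.3 at 6h, and 22.8 and 24 at 20h. IM libraries held Acly at 15.9 and 18.4 TPM at 0h, 6.06 and 6.45 at 2h, 14.2 and 17 at 6h, and 15.1 and 28.4 at 20h. iMo values of Acly were 22.9 and 22.3 TPM at 0h, 19.3 and 11.8 at 2h, 23.8 and 18 at 6h, and 28.4 and 32.9 at 20h. The IM libraries of 2h were the lowest of all 27, and IM 20h B161219 lay within the AM range. Acly was lower in IM by -0.66 (SE 0.22, adjusted p = 0.000572) and did not pass in iMo (-0.17, SE 0.22).

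Fasn is the fatty acid synthase (chr11:120805846-120824547, minus strand). Fasn in AM was at 5, 4.7, 6.75 and 5.03 TPM at 0h, 4.91 and 4.41 at 2h, 5.77, 8.04 and 5.35 at 6h, and 4.77 and 4.12 at 20h. IM libraries held Fasn at 3.31 and 2.37 TPM at 0h, 1.63 and 0.473 at 2h, 2.68 and 2.58 at 6h, and 1.73 and 5.43 at 20h. iMo values of Fasn were 1.36 and 1.29 TPM at 0h, 5.59 and 0.979 at 2h, 8.19 and 5.22 at 6h, and 6.67 and 12.8 at 20h. In iMo the 0h libraries and iMo 2h B161219 were low, and iMo 20h B161219 was the highest of all 27. Over the ip times Fasn was lower in IM than in AM by -0.67 (SE 0.26, adjusted p = 0.00251), and it was the 1 gene of the list called between iMo and IM, higher in iMo by 0.93 (SE 0.26, 0.01), where 9.13% of all genes were called (4.22% higher, 4.91% lower). The latter call was lost without IM 20h A161219 or iMo 2h A161219. The count was 4 without iMo 2h B161219, 3 without AM 0h unlettered or IM 20h B161219, and 2 without AM 2h unlettered, AM 2h B161219, AM 6h unlettered, IM 2h unlettered, IM 2h A161219 or iMo 20h A161219.

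**Figure D2:**
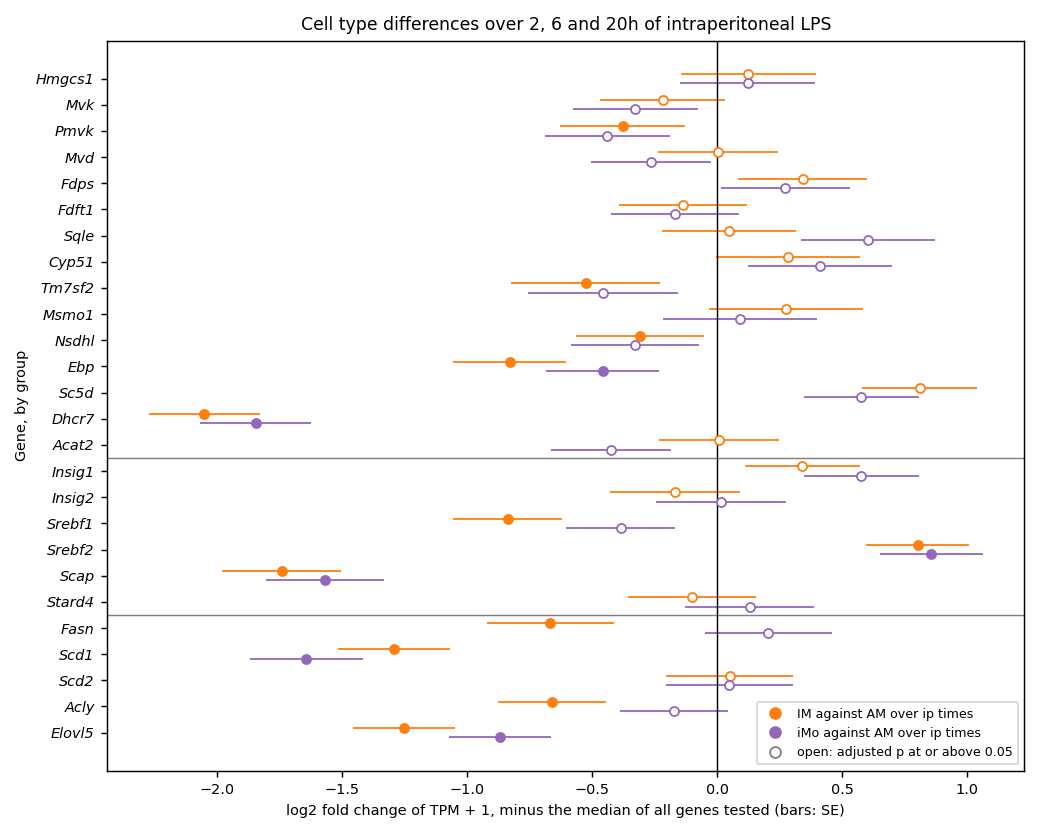
Fold changes of the 26 tested genes in IM (orange) and iMo (purple) against AM over 2, 6 and 20h of LPS, as log2 differences minus the median of all genes, with SE bars and filled points for adjusted p under 0.05. Dhcr7 lies farthest to the left in both cell types (-2.05 and -1.85), followed by Scap in IM (-1.74) and by Scd1 and Scap in iMo (-1.64 and -1.57), and Srebf2 lies to the right (0.80 and 0.86).

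Of the 18 calls in these comparisons with AM, 13 were kept under every alternative processing and in every leave-out fit in which the gene was tested: Ebp, Dhcr7, Srebf1, Scap, Fasn, Scd1, Acly and Elovl5 in IM, and Dhcr7, Srebf2, Scap, Scd1 and Elovl5 in iMo. Scd1 was tested in 25 of the 27 leave-out fits, since it failed the filter without AM 6h A161219 or B161219. Its AM values thus admitted it to the test, which favours its calls against AM. Both were also kept with no filter. Without iMo 2h A161219 the iMo count was 10. The balance of calls moved with the scaling: quantile normalization gave 2 higher and 9 lower in IM and 5 higher and 7 lower in iMo, adding Sc5d, Insig1, Sqle and Cyp51 as higher in iMo, and rescaling without Rn45s and Lars2 gave 0 higher and 19 lower in IM, where Fads1 also passed the filter. With quantile normalization, 5295 (IM) and 5061 (iMo) of all 8937 genes were called, 44.4 and 49.7% of them higher. With rescaling, 7715 of 12232 were called in IM, 19.9% of them higher. The neutrophil markers given above moved with the IM comparison, and all 10 were higher in IM than in AM, and 8 of 10 in iMo.

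Before LPS, several of the same genes already separated the cell types. In IM at 0h, 0 genes were higher and 5 lower than in AM (26% of all genes called, 15% higher and 11% lower): Mvd -1.66 (SE 0.37, adjusted p = 0.0012), Dhcr7 -1.31 (SE 0.34, 0.00497), Nsdhl -1.09 (SE 0.39, 0.0435), Acly -0.93 (SE 0.33, 0.0414) and Elovl5 -0.87 (SE 0.31, 0.0447). In iMo at 0h, 0 were higher and 9 lower (29.6% of all genes, 16.2% higher and 13.4% lower). These were Dhcr7 (-1.996), Mvd (-1.59), Fasn (-1.59), Scd1 (-1.46), Nsdhl (-1.44), Mvk (-1.43), Srebf2 (-1.24), Elovl5 (-1.17) and Scap (-1.12), with adjusted p from 0.000149 for Dhcr7 to 0.0461 for Scap. At this time 24 of the 26 genes lay below the median of all genes in iMo against AM, and 20 of 26 in IM against AM. By definition the median splits all tested genes evenly. Scd1 and Tm7sf2 reached 5 TPM in AM libraries alone, and Nsdhl in AM and 1 IM library. The filter thus favoured low places, and calls against AM, for these genes. Genes of the list can also move together, so the tally is a description without a test. iMo differed from IM at 0h in 2 genes, both lower: Scd1 (-1.60, SE 0.40, adjusted p = 0.0239) and Srebf2 (-1.40, SE 0.37, 0.0355), with 7.06% of all genes called (0.739% higher, 6.32% lower).

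These 0h calls rested on few libraries. The IM count was 0 without IM 0h A171227, 2 without AM 0h A171227, C171227 or D171227, and 3 without IM 0h B171227 or AM 6h B161219. The iMo count against AM was 4 without iMo 0h A171227 and 3 without iMo 0h B171227. Dhcr7 and Mvd kept their calls with every library left out and Scap in 9 of 27 fits. The count between iMo and IM was 0 without IM 0h A171227 or either iMo 0h library, 1 without IM 0h B171227, AM 6h A161219 or AM 6h B161219, and 0 with quantile normalization. The epithelial markers without Cd74 summed to 448 and 762 TPM in IM 0h, 440 and 445 in iMo 0h, and 60.2 to 280 in AM 0h. In iMo these sums were mostly Napsa, at 129 to 419 TPM over all times, where Sftpc came next with at most 13.9. Napsa was at 93.7 to 223 in IM and 17.6 to 50.9 in AM. Epcam went the other way, at 4.63 to 91.4 in AM and at most 2.58 in IM and 0.889 in iMo. The part of other cells in these differences was not tested.

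In iMo, Srebf2 and Fasn were higher and Ebp was lower after LPS than at 0h. Srebf2 rose from 4.58 and 4.75 TPM at 0h to 30.9 and 15.3 at 2h, 33.8 and 22.6 at 6h and 15.4 and 24.7 at 20h, with no overlap. Its fold changes were 2.44 (SE 0.37, limma's adjusted p = 0.000247), 2.82 (7.2e-05) and 2.17 (0.000988). Fasn rose by 2.18 (SE 0.45, 0.00733) at 6h and 2.45 (SE 0.45, 0.00184) at 20h. At 2h, 2 of 26 genes rose and 4 fell (32.4% of all genes called, 8.41% higher and 24% lower). At 6h 3 rose and 1 fell (29.1%, 5.95% higher and 23.1% lower), and at 20h 2 rose and 1 fell (22.2%, 7.39% higher and 14.8% lower).

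Sterol genes were called in both directions in iMo, with Insig1 and Sqle higher and Ebp and Dhcr7 lower. Insig1, the sterol-responsive brake on Scap, was at 5.34 and 7.69 TPM at 0h, 17.6 and 12.6 at 2h, 9.91 and 20.7 at 6h, and 5.51 and 6.5 at 20h. It rose at 2h by 1.53 (SE 0.41, adjusted p = 0.0423), a call lost without any 1 of the iMo libraries of 0h and 2h, and at 6h had 1.53 (0.0563). Sqle, squalene epoxidase, was at 5.38 and 5.49 TPM at 0h and at 15.7 and 18.9 at 6h, a rise of 1.99 (SE 0.48, 0.0203). Ebp fell at 2h (-1.07, SE 0.40, 0.00659), 6h (-0.83, 0.0176) and 20h (-1.04, 0.0196), from 49.1 and 66.4 TPM to between 17 and 23.5. At 2h, Scap (-1.24, SE 0.42, 0.00404), Scd2 (-0.80, SE 0.45, 0.0418) and Dhcr7 (-0.76, SE 0.39, 0.0244) also fell. Scd2, a second stearoyl-CoA desaturase, was at 2.84 and 0.356 TPM there against 3.72 and 5.03 at 0h. These 3 calls were lost with quantile normalization, with rescaling without Rn45s and Lars2, and without iMo 2h B161219. Scd2 and Dhcr7 also lost theirs without iMo 0h A171227 or B171227. The Ebp calls were lost at each time without iMo 0h B171227. That of Sqle was lost without any 1 of the iMo libraries of 0h and 6h.

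The median difference of all genes in iMo was -0.43, -0.48 and -0.31 (log2) at 2, 6 and 20h. With quantile normalization, 5 rose and 1 fell at 2h, 7 rose and 1 fell at 6h, and 5 rose and 1 fell at 20h, including Hmgcs1 (1.39 at 2h, adjusted p = 0.00358, and 1.66 at 6h, 0.000951) and Insig1 (1.45 at 2h, 0.00271, and 1.49 at 6h, 0.00248). Rescaling without Rn45s and Lars2 gave 6 and 1, 12 and 0, and 7 and 0. Over all 8937 genes, quantile normalization called 3030, 2607 and 2416, of which 49.5, 48.5 and 51.4% were higher. Rescaling called 3122, 2959 and 2933 of 12232, of which 51.4, 67.5 and 82.1% were higher. Srebf2 kept its calls in 27 of 27 leave-out fits at each time. Counts at 2h were 3 and 2 without iMo 0h A171227 and B171227 and 2 without iMo 2h B161219, at 6h 2 without iMo 0h B171227 or either iMo 6h library, and at 20h 1 without iMo 20h B161219. The iMo libraries of 0h (A171227 and B171227) share no title code with those of ip (A161219 and B161219). With the code as a covariate, which the unlettered AM library of 0h alone links across, 0 genes were called at any of the 3 times (Srebf2 adjusted p = 0.0842, 0.0505 and 0.175). The fold changes in that fit were 1.83, 2.23 and 1.57 for Srebf2, 2.22 at 6h and 2.49 at 20h for Fasn, and 1.91 at 6h for Sqle. By design, code and LPS cannot be told apart in iMo without that AM library. Cell cycle genes summed to 4.43 and 5.9 TPM at 0h, 15 and 20.6 at 2h, 97.9 and 101 at 6h, and 93.9 and 113 at 20h. Of 10 neutrophil markers, 6, 7 and 8 were higher at 2, 6 and 20h (1 was lower at 20h), and their sums went from 135 and 216 TPM at 0h to 2880 and 2910 at 20h. Of 8 monocyte markers, 0, 2 and 6 were lower, and of 9 interstitial macrophage markers 4 were higher and 1 lower at 20h. The part of these differences in the iMo results was not tested.

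**Figure D3:**
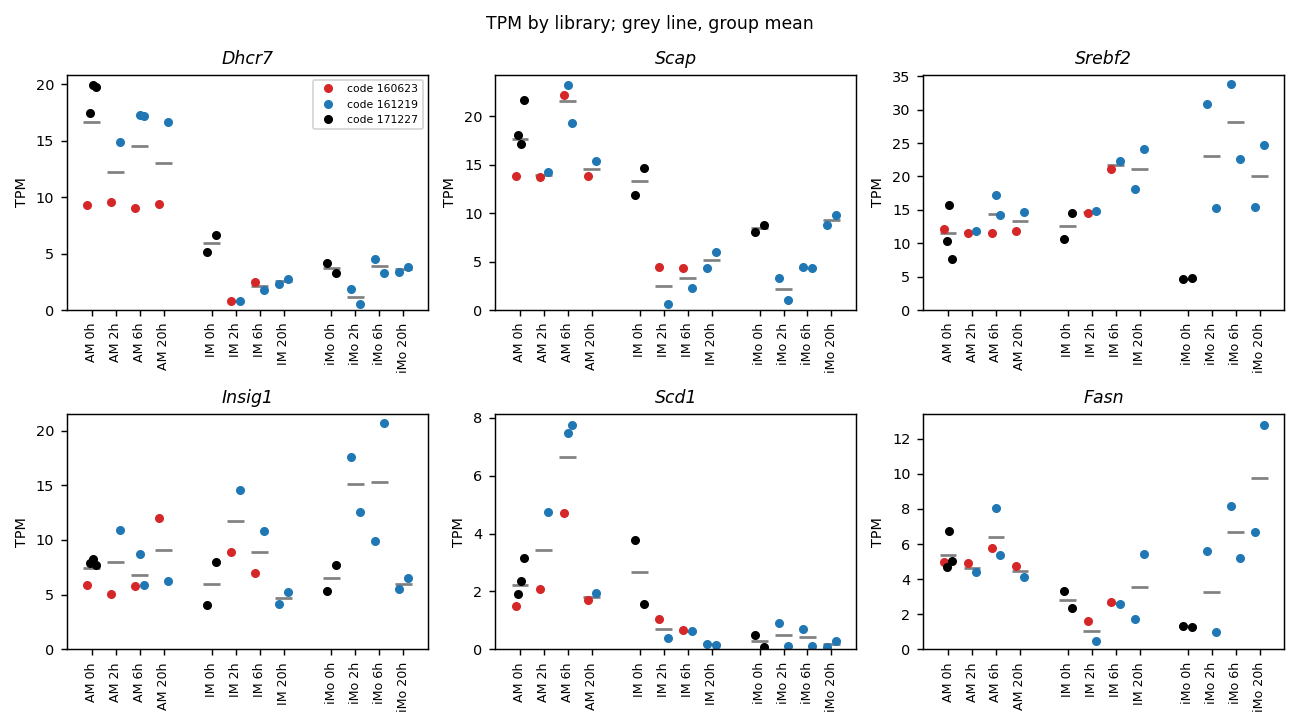
TPM of Dhcr7, Scap, Srebf2, Insig1, Scd1 and Fasn in each library (points, coloured by title code) with group means (grey lines), by cell type and hours after LPS. Dhcr7 and Scap are highest in AM, Srebf2 and Fasn rise in iMo from their 0h values, and Scd1 peaks in AM at 6h.

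In the libraries labelled IM, the called genes at 2h were all lower: 0 higher and 11 lower of 26, against 48.7% of all genes (40.8% lower and 7.99% higher), and the median of all genes was -0.80. The 6 with the largest changes were Scap (-1.48, SE 0.42, adjusted p = 0.000153), Ebp (-1.46, SE 0.40, 0.000115), Dhcr7 (-1.16, SE 0.39, 0.000368), Scd2 (-1.08, SE 0.45, 0.00176), Insig2 (-0.92, SE 0.46, 0.00402) and Srebf1 (-0.79, SE 0.39, 0.00199). By arm, 3 of 15 sterol enzymes, 4 of 6 regulators and 4 of 5 fatty acid enzymes were called. Relative to all genes the sterol arm had a median of 0.54, with 10 of 15 above the median of all genes, and the fatty acid arm -0.50, with 0 of 5 above.

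Sterol genes went both ways in IM: Ebp, Dhcr7 and Pmvk were called lower at 2h, while Hmgcs1, Sqle and Insig1 were not. Hmgcs1, which makes the precursor of mevalonate, was at 11.3 and 9.54 TPM at 0h, 9.37 and 18.4 at 2h, and 11.1 and 29.2 at 6h. Sqle was at 4.73 and 5.14, then 4.95 and 10.1, then 8.92 and 11.5. Insig1 was at 4.03 and 7.99, then 8.93 and 14.6, then 6.97 and 10.8. None of them passed on the scale as deposited (fold changes at 2h of 1.11, 1.25 and 1.68, adjusted p = 0.599, 0.439 and 0.0755). With quantile normalization, which removes the shift of all genes, 5 were higher and 5 lower at 2h, the higher being Acat2 (1.62, adjusted p = 0.00326), Hmgcs1 (1.00, 0.0203), Insig1 (1.66, 0.000458), Cyp51 (1.19, 0.0117) and Sqle (1.30, 0.00784). Rescaling gave 1 higher (Insig1) and 11 lower, 1 of them Fads1. Over all genes, 3847 of 8937 were called with quantile normalization (48.5% of them higher), and 4965 of 12232 with rescaling (20.2% higher).

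At 6h, 0 were higher and 4 lower (25.5% of all genes, 4.63% higher and 20.8% lower): Scap (-1.24, SE 0.42, adjusted p = 0.00342), Dhcr7 (-0.60, SE 0.39, 0.0377), Ebp (-0.59, SE 0.40, 0.0429) and Scd1 (-0.56, SE 0.40, 0.0478). The direction moved with the scaling, and so did that of all genes. Quantile normalization gave 8 higher and 0 lower (Acat2, Hmgcs1, Insig1, Cyp51, Mvd, Sqle, Srebf2 and Fdps). Over all 8937 genes it called 2641, 51.8% of them higher. Rescaling gave 3 higher (Acat2, Hmgcs1 and Mvd) and 2 lower (Ebp and Fads1), with 2402 of 12232 genes called, 29.2% of them higher. The count was 1 without either IM 6h library and 2 without IM 0h A171227, IM 0h B171227, AM 0h C171227, AM 6h A161219, AM 6h B161219, iMo 20h A161219 or iMo 20h B161219. At 20h, 1 gene, Scd1, was lower (-1.49, SE 0.40, 0.00858; 12.4% of all genes, 4.05% higher and 8.39% lower), and the call was lost without IM 0h A171227 or either IM 20h library, while Scd1 was not tested without AM 6h A161219 or B161219. The count was 2 without any 1 of the IM or iMo libraries of 2h. The count at 2h stayed between 9 and 13 with any library left out. With the title code as a covariate it was 1 (Ebp, adjusted p = 0.00553), and 0 at 6 and 20h. The IM libraries of 0h share no title code with those of ip. As in iMo, code and LPS cannot be told apart in IM without the unlettered AM library of 0h. Beside these changes, 8 of 9 interstitial macrophage markers were also lower at 2h, and 5 of 10 neutrophil markers higher. All 7 endothelial markers were lower (summed from 521 and 700 TPM at 0h to 7.75 and 15.6 at 2h), as were all 5 tested lymphocyte markers and 5 of 7 tested epithelial markers. Genes with at least 5 TPM numbered 4068 and 5374 at 2h and 6895 and 6905 at 0h.

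Few genes were called in AM. At 2h 0 of 26 genes were called (0.134% of all genes, all higher, 1 of 26 at an unadjusted p under 0.05), at 6h 1 was higher (1.3%, 0.929% higher and 0.369% lower, 4 unadjusted) and at 20h 0 were called (0.112%, 0.0448% higher and 0.0671% lower, 3 unadjusted), all by limma. The gene at 6h was Scd1, at 4.7, 7.46 and 7.75 TPM against 1.5 to 3.16 at 0h, with no overlap (1.40, SE 0.31, adjusted p = 0.0428). It passed the filter through the same libraries, so this comparison was favoured by the filter, and the call was lost in 7 of 25 leave-out fits in which Scd1 was still tested, without AM 6h A161219 or B161219 (when it was not), and with all unlettered libraries left out. Mvd had the smallest p at 2h (-0.83, SE 0.37, adjusted p = 1) and 20h (adjusted p = 0.251). It was at 27.1 to 66.2 TPM at 0h and 12.6 to 29.4 after LPS. Leaving out all unlettered libraries gave 0 calls at 6h, and quantile normalization gave 1 higher (Scd1) and 1 lower (Mvd) there. Of all 8937 genes, quantile normalization called 256 at 6h, 66.4% of them higher. At 20h, leaving out the unlettered library left A161219 alone, where interstitial macrophage markers were at 985 TPM and Fdft1 was at 38.5. Calls that rest on that library alone are not counted here.

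Within the LPS libraries alone, 20h was set against 2h. In IM, 10 genes were higher at 20h and 1 lower (39% of all genes called, 31.8% higher and 7.17% lower, median of all genes 0.65). The largest changes were Insig1 (-1.79, SE 0.41, adjusted p = 0.0315), Scd2 (1.39, SE 0.45, 0.00144), Ebp (1.07, SE 0.40, 0.00216), Acly (0.94, SE 0.38, 0.00278), Pmvk (0.62, SE 0.44, 0.0271) and Insig2 (0.61, SE 0.46, 0.0336). IM at 2h held an unlettered library, of another title code, and IM at 20h did not, so code and time were unbalanced. With the code as a covariate in limma, Pmvk (0.52, adjusted p = 0.0406) and Insig2 (0.51, 0.0462) kept their calls. Nsdhl (0.55, 0.0636) and Dhcr7 (0.30, 0.0719), also called higher, lost theirs. In iMo, 6 were higher and 1 lower (25%, 14.7% higher and 10.3% lower, median 0.14): Scd2 (1.67, SE 0.45, 0.00514), Scap (1.66, SE 0.42, 0.00305), Mvk (1.57, SE 0.45, 0.00665), Fasn (1.37, SE 0.45, 0.0169), Pmvk (1.35, SE 0.44, 0.0156), Dhcr7 (1.01, SE 0.39, 0.0343) and, lower, Insig1 (-1.33, SE 0.41, 0.0355). In AM 0 were called (0.0224%, all lower, 2 at an unadjusted p under 0.05), and Fdft1 had the smallest p (1.31, SE 0.46, adjusted p = 0.915).

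Insig1 fell from 2h to 20h in both IM and iMo while Scd2 rose. Insig1 in IM was at 8.93 and 14.6 TPM at 2h and 4.16 and 5.23 at 20h, and in iMo at 17.6 and 12.6, then 5.51 and 6.5, with no overlap in either. Scd2 in IM was at 0.762 and 0.63, then 4.2 and 8.31, and in iMo at 2.84 and 0.356, then 4.59 and 10.4. Scd2 in IM kept its call under every alternative and in all leave-out fits. Quantile normalization gave 3 higher and 6 lower in IM, the lower being Hmgcs1 (-1.39, adjusted p = 0.00418), Insig1 (-1.79, 0.00048), Cyp51 (-1.81, 0.000807), Tm7sf2 (-1.23, 0.0491), Sqle (-1.55, 0.00387) and Fdps (-1.33, 0.0414). In iMo it gave 6 higher and 6 lower, and rescaling gave 10 higher and 0 lower. Over all genes, quantile normalization called 2933 (IM) and 3009 (iMo) of 8937, 53.3 and 51% of them higher. Rescaling called 3774 of 12232 in iMo, 73.4% of them higher. The IM count was 6 and 5 without IM 2h unlettered and A161219, and 7 and 3 without IM 20h A161219 and B161219. The iMo count was 0 without iMo 2h B161219, 4 without iMo 20h A161219 and 3 without iMo 20h B161219.

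**Figure D4:**
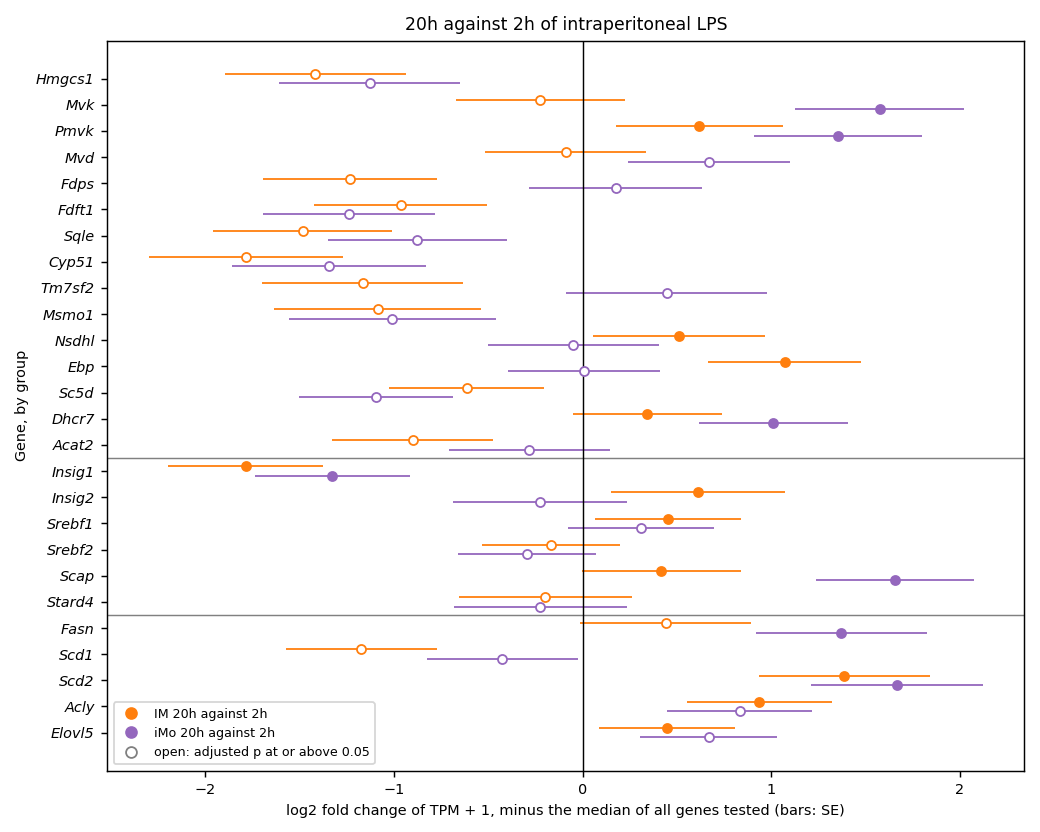
Fold changes from 2h to 20h of LPS in IM (orange) and iMo (purple) for the 26 tested genes, as log2 differences minus the median of all genes, with SE bars and filled points for adjusted p under 0.05. Scd2 is to the right and Insig1 to the left in both cell types, and Hmgcs1, Sqle and Cyp51 are open points to the left.

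Whether the responses to LPS differed between cell types was tested over the 3 times together with limma's moderated F test. Between IM and AM, 7 of 26 genes differed (26.5% of all genes). For Ebp (adjusted p = 0.00985) the response in IM minus that in AM was -2.40, -0.98 and -0.27 at 2, 6 and 20h, for Scd1 (0.0109) -1.47, -2.33 and -1.41, and for Scap (0.0161) -1.98, -2.06 and -0.96, all as log2 differences. Mvd (0.0454) differed the other way (0.68, 1.71 and 1.69). On this scale, Acly (0.0469), Scd2 (0.0484) and Pmvk (0.0487) were negative at 2h and positive at 20h. These differences, unlike the fold changes above, are not taken minus the median of all genes. The medians at 2, 6 and 20h against 0h were -0.80, -0.53 and -0.09 in IM. In AM they were -0.03, -0.16 and -0.31, and in iMo -0.43, -0.48 and -0.31. The shift of all genes is thus part of each difference. The Scd1 test holds the AM 6h libraries that took it past the filter, which favours it. Between iMo and AM, 3 differed (17.3%): Srebf2 (0.00919; 1.94, 2.01 and 1.62), Fasn (0.034; 0.80, 1.49 and 2.36) and Pmvk (0.0423; -1.15, 0.34 and 1.29). Between iMo and IM 0 differed (3.75%, 2 of 26 at an unadjusted p under 0.05), with Srebf2 at an adjusted p of 0.148. These counts moved with single libraries. The first lay between 2 and 9 and was below 5 without any 1 of 17 libraries, lowest (2) without IM 0h A171227, AM 2h B161219 or IM 2h unlettered. The count between iMo and AM was 0 without either iMo 0h library, 1 without AM 0h C171227 or AM 20h A161219, 5 without AM 2h unlettered, IM 2h unlettered or IM 2h A161219, and 6 without AM 0h unlettered or iMo 2h A161219. That between iMo and IM was 2 without iMo 2h B161219.

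The 7 genes below the filter were Idi1, Lss, Hsd17b7, Acaca, Elovl6, Fads1 and Fads2. Fads1, a desaturase of polyunsaturated fatty acids, missed it narrowly, at 8.17 and 4.94 TPM in IM 0h and at most 3.74 elsewhere. At the other side of the threshold, Acat2 passed through 2 libraries (highest 6.01 TPM). With no filter (23306 genes tested), Fads1 was higher in IM than in AM at 0h by 2.03 (SE 0.33, adjusted p = 7.4e-05) and lower at 2h than at 0h in IM by -2.43 (SE 0.38, 3.87e-05). In iMo, Hsd17b7, a sterol ketone reductase, was at 0.134 and 1.06 TPM at 0h and 3.14 and 3.46 at 6h (1.49, SE 0.40, adjusted p = 0.0172 with no filter). Lss, which closes the sterol rings, was lower in iMo than in AM at 0h (-1.04, SE 0.29, 0.0183 with no filter).

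Fdft1, squalene synthase, shares exon sequence with Ctsb on the opposite strand, and library strand is not given in the sources used here. Its highest value, 38.5 TPM, was in AM 20h A161219, against 4.57 to 15.2 in the other 26 libraries, and Ctsb was at 1260 TPM in that library and 148 to 415 elsewhere. Fdft1 was called in no comparison, and reads of the 2 genes cannot be told apart here. Hmgcs1, Fdps, Cyp51, Scap and Tm7sf2 also share exon sequence with an annotated neighbour.

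Other genes around the pathway were read from lists chosen by function. Of 10 tested genes of SREBP processing, 1 was higher and 2 were lower in IM than in AM over the ip times, led by Nfyb (1.00, limma's adjusted p = 0.0152), an NF-Y subunit, and in iMo 2 were higher and 1 lower. Of 11 further lipogenic targets, 0 were higher and 7 lower in IM and likewise in iMo, led by Lpin1, a phosphatidate phosphatase (-3.94, 2.47e-14, and -4.07, 1.02e-13). Of 10 isoprenoid genes, 1 was higher and 4 lower in IM and 1 and 0 in iMo, with Pdss1 highest (0.91, 0.0386, and 1.01, 0.00339). Of 7 genes of LXR and sterol export, 2 were higher and 3 lower in IM and 1 and 4 in iMo, led by Abcg1, a sterol exporter (-4.11, 1.81e-13, and -5.14, 7.41e-14). Of 8 genes of sterol esterification, oxidation and release, 1 was higher and 6 lower in IM and 1 and 5 in iMo, led by Nceh1, a cholesteryl ester hydrolase (-3.96, 8.08e-14, and -4.24, 1.48e-13). The shares of all genes called in these comparisons are those given above.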

How the data were processed

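RNA-seq was read in 27 libraries of 12 groups (2 to 4 each). The values are TPM, deposited by the authors as 1 table. STAR, HOMER and mm10 are named per the submitters' processing notes, with neither versions nor library strand (not given in the sources used here). TPM keeps no read depth, so counting error is unknown, and column sums were 331473 to 551635. Values were taken as log2(TPM + 1), a gene was kept where 2 or more libraries held it at 5 TPM or more, and 12 group means were fitted in R 4.3.3 with limma 3.58.1 (moderated, with trend, residual df 15). P-values were Benjamini-Hochberg adjusted over all 8937 genes within each comparison, with 0.05 as the threshold. The members and lists were chosen with earlier results of these data known. Values in every library are given for the 6 sterol enzymes, 4 fatty acid enzymes and 3 regulators with the smallest p over all groups, and further genes where a comparison called them or a result turned on them. The model was checked on simulated data. Alternatives were a pseudocount of 0.1 TPM, no filter, quantile normalization, rescaling without Rn45s and Lars2, the title code as covariate and a replicate block. Further ones were array weights, each library left out, and, chosen after seeing the data, all 6 unlettered libraries left out. Rescaling also set all columns to the same sum, higher than any deposited, so 12232 genes passed the filter. The 18 nasal libraries were left out because their log values correlated with the others by 0.0097 to 0.025, against 0.757 to 0.989 within each set. Promoters are RefSeq's and gene coordinates are mm10.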

Additional observations from a re-analysis of the deposited data

Results flagged for a closer look

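In AM at 0h, the only group with 4 libraries, 1 library stood apart from the other 3 for 7 of 33 genes by Dixon's test (nominal level 1 in 20). The test was run on the listed genes alone, and a library can shift many genes at once. The count is therefore not a result about this list. The unlettered library was low for Sqle (7.62 TPM, others 12.2 to 12.7), Nsdhl (4.8, others 10.2 to 10.8), Srebf1 (14.6, others 26.2 to 28) and Acly (23.1, others 36.7 to 39). Rn45s took 30.4% of its column sum. Library A171227 was high for Hmgcs1 (27.1 TPM, others 11.9 to 13.7) and Elovl6 (4.22, others 1.81 to 2.1). Library C171227 was high for Fasn (6.75 TPM, others 4.7 to 5.03).

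The response to LPS differed between IM and AM, by limma's moderated F test over 2, 6 and 20h, for Ebp (adjusted p = 0.00985), Scd1 (0.0109), Scap (0.0161), Mvd (0.0454), Acly (0.0469), Scd2 (0.0484) and Pmvk (0.0487). It differed between iMo and AM for Srebf2 (adjusted p = 0.00919), Fasn (0.034) and Pmvk (0.0423). Of these 10, Mvd between IM and AM had 0h values in AM, at 27.1 to 66.2 TPM, above all its later IM and iMo values.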

How the results depend on the processing

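Of 83 calls over all comparisons of means, 16 were kept under all 8 alternatives and in every leave-out fit in which the gene was tested, and 26 in every such leave-out fit. Both counts include Scd1 in IM and in iMo against AM after LPS, tested in 25 of 27 fits and favoured by the filter. Counts of genes called that moved by over 1.5 times were as follows, each with the cause not tested. The share of all genes called also moved with the setting, so these counts are not results about this list. A pseudocount of 0.1 TPM gave 0 in AM at 6h, 3 in IM against AM at 0h, 2 in iMo against IM after LPS, and 3 and 1 for the responses of IM and iMo against AM. No filter gave 0 in AM at 6h, 2 in IM at 6h, 3 in IM against AM at 0h, 5 in IM from 2h to 20h, and 4, 1 and 1 for the responses of IM against AM, iMo against AM and iMo against IM. Quantile normalization gave 2 in AM at 6h, 8 in IM at 6h, 8 and 6 in iMo at 6 and 20h, 9, 14 and 0 for IM against AM, iMo against AM and iMo against IM at 0h, 12 and 5 for iMo against AM and IM after LPS, 12 in iMo from 2h to 20h, and 12 and 12 for the responses of IM and iMo against AM. Rescaling gave 12 and 7 in iMo at 6 and 20h, 11 and 19 for IM and iMo against AM at 0h, 19 for IM against AM and 8 for iMo against IM after LPS, and 11 for the response of iMo against AM. The title code as a covariate gave 0 in AM at 6h, 1, 0 and 0 in IM and 0, 0 and 0 in iMo at 2, 6 and 20h, 10 for iMo against AM after LPS, 11 in iMo from 2h to 20h and 9 for its response against AM. Array weights gave 4 in AM at 6h, 3 in IM and 7 in iMo at 20h, 6 in IM from 2h to 20h, and 4 and 6 for the responses of IM and iMo against AM. Leaving out the 6 unlettered libraries gave 0 in AM at 6h and 3 in IM at 20h. In iMo it gave 7 and 6 at 6 and 20h, and 12 from 2h to 20h. That fit left B161219 alone in AM at 2h, and A161219 alone in AM at 20h and in IM at 2 and 6h. Counts in comparisons with those groups are not given.

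The labels do not say that replicate names pair libraries. Over 36 same-named pairs, deviations correlated by -0.21 to 0.5 (median 0.115, 20 over 0.1), so some groups deviated together and others did not, and the names were not taken as a pairing. With the replicate block, counts were 0 in AM at 6h and in IM and iMo at 2, 6 and 20h, 3 and 4 for IM and iMo against AM at 0h, and 3 for the response of IM against AM, and 2 fold changes reversed, Pmvk (0.18) and Stard4 (0.30) in IM at 2h.

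Leaving out 1 library at a time gave 0 to 1 calls in AM at 6h and 0 to 1 at 20h. In IM it gave 9 to 13, 1 to 6 and 0 to 2, and in iMo 2 to 7, 2 to 5 and 1 to 4, at 2, 6 and 20h. At 0h it gave 0 to 6 (IM against AM), 3 to 9 (iMo against AM) and 0 to 2 (iMo against IM), and after LPS 9 to 13, 4 to 10 and 0 to 4. From 2h to 20h it gave 0 to 1 in AM, 3 to 12 in IM and 0 to 8 in iMo, and for the responses 2 to 9, 0 to 6 and 0 to 2. Fold changes reversed for Scd1 in IM at 2h (0.17 without IM 0h A171227 and 0.28 without IM 2h A161219, over a range of -0.84 to 0.28) and Scap in IM from 2h to 20h (-0.74 without IM 2h A161219, over a range of -0.74 to 1.57). TPM keeps no depth, so the precision of low values such as Scd1 cannot be given.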
